A study of Saccharomyces cerevisiae with 2 samples.

Results

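The oligosaccharyltransferase complex of Saccharomyces cerevisiae was described through 8 of its subunit genes, taken by identifier from a deposited table of 4685 genes. The genes were OST1 (YJL002C), WBP1 (YEL002C), SWP1 (YMR149W), STT3 (YGL022W), OST2 (YOR103C), OST4 (YDL232W), OST3 (YOR085W) and OST6 (YML019W). All 8 were listed, and all 8 passed the minimum used here, a mean of at least 5 over both RPKM values, which 4642 genes passed. RPKM, as deposited by the authors, is a read number scaled by gene length and by library size. The cells were BY4741, a haploid MATa laboratory strain that lacks LEU2, MET17 and URA3 and carries a partial deletion of HIS3. They were in the mid-log phase of growth in YPD, a rich glucose medium, and no other strain, agent or condition was part of the series. An RNA-seq library from cytoplasmically enriched, rRNA-depleted RNA and a library of ribosome-protected fragments were made, 1 of each. No value therefore has a replicate error, no test between genes was made, and each difference between genes below is a difference within these libraries. For the strain check, all 6 MATa-specific genes looked up were listed, with 78.8 to 1769 RPKM of footprints. Of 4 MATalpha-specific genes only SAG1 was listed, with 1.14 RPKM of footprints, and the 3 fully deleted genes were not among the listed genes. HIS3, whose deletion is partial, was listed at 97.2 RPKM in RNA and 138.5 RPKM in footprints.

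Oligosaccharyltransferase sits in the membrane of the endoplasmic reticulum beside the protein-conducting channel. It moves a preassembled sugar tree from the lipid dolichol pyrophosphate onto asparagines of proteins as they enter the lumen, and in yeast most secretory, vacuolar and cell wall proteins pass through this step. STT3 is the catalytic subunit and is bound by the very small membrane protein OST4. OST3 and OST6 have thioredoxin-like luminal domains and take the same place beside STT3, so a complex holds either the OST3 or the OST6 protein. WBP1, SWP1 and OST2 form another subcomplex, and OST1 pairs with OST5. OST1, WBP1, SWP1, OST2 and STT3 are essential for growth, and OST3, OST6, OST4 and OST5 are not. The genes OST1, WBP1, SWP1, STT3, OST2 and OST4 are called the constant subunits here, since each has 1 place in every complex. OST5 was not among the 8 genes but was listed as well, and it is given beside them.

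The sequences below, read from the R64 reference genome, show the parts that carry the known activities, since the catalytic and the alternative subunits are compared in the following results. Capitals mark the 5 codons of the catalytic motif known as WWDYG in STT3 (chrVII:453940-453972, plus strand) and both cysteine codons of the Cys-X-X-Cys motif in OST3 (chrXV:482240-482269, plus strand) and OST6 (chrXIII:233679-233708, plus strand).
STT3: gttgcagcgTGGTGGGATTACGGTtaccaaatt
OST3: gaaattggcTGTtctctgTGTctcgagcta
OST6: ggcatgagtTGCcaactaTGCcatgatttt
The STT3 motif spans residues 516 to 520 and was found in 1 of the 4685 listed reading frames. The cysteine motif spans residues 73 to 76 in OST3 and 78 to 81 in OST6. It was absent from the other subunit genes, and 16.2% of listed reading frames hold at least 1 such motif. The translated OST3 and OST6 frames were 27.8% identical over 291 aligned residues. They shared no stretch of 25 identical bases, and none of the 25-base windows of any of the 8 genes occurred elsewhere in the genome. None of the 8 genes overlapped another annotated gene. The acceptor motif that the enzyme itself recognises, asparagine followed by any residue but proline and then serine or threonine, occurred 6 times in OST1, 3 times in STT3, 2 times in WBP1 and 1 time each in OST3 and OST6, and not in SWP1, OST2 or OST4. Whether these positions carry a glycan is not measured here.

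The 8 genes were all above the median gene in RNA and in footprints, OST6 by the least. RNA values ran from 71.2 RPKM for OST6 to 254 RPKM for STT3, against 49.6 RPKM for the median gene. Footprint values ran from 51.9 RPKM for OST6 to 230.3 RPKM for WBP1, against 39.4 RPKM for the median gene. OST6 was the lowest of the 8 in both libraries. By RPKM times coding length, the 8 genes together took 0.175% of the table's RNA and 0.128% of its footprints.

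**Figure D1:**
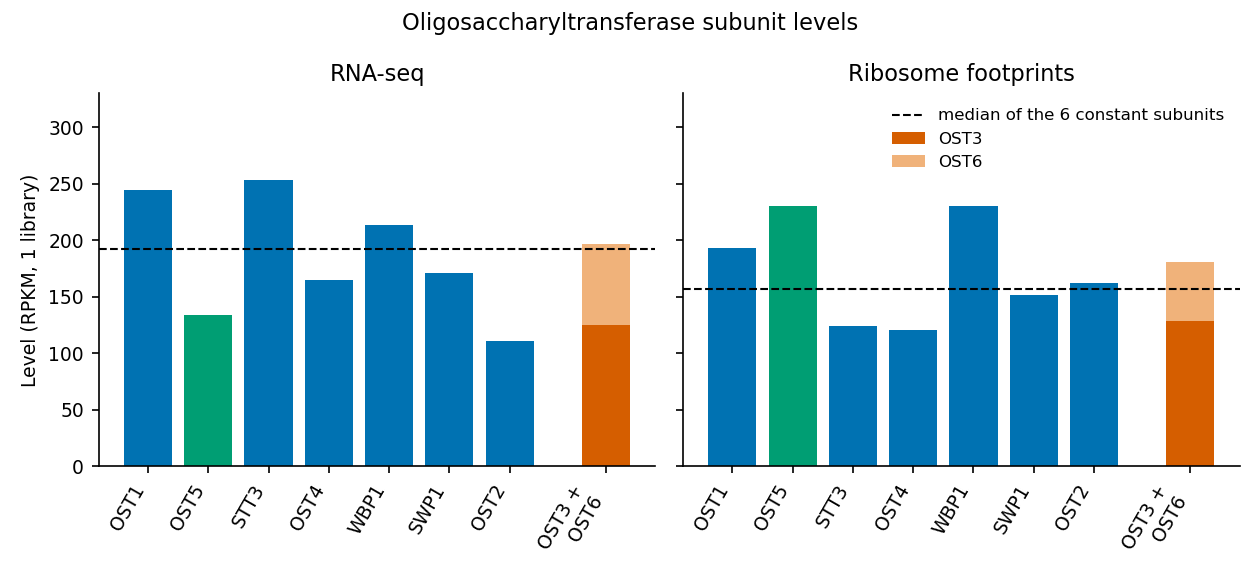
RNA (left) and footprint (right) RPKM of each subunit gene, 1 library each, as bars from 0. Blue bars are the constant subunits, the green bar is OST5, OST3 and OST6 are stacked, and the dashed line is the median of the 6 constant subunits, 192 RPKM in RNA and 157 RPKM in footprints. The stacked bar ends near that line in both libraries.

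STT3, the catalytic subunit (chromosome VII, 452404 to 454560, plus strand, 2157 nt of coding sequence), had the highest RNA level of the 8 genes. Its footprint level was below that of most of the 8. Its 254 RPKM of RNA lay at the 89.8th percentile of the analysed genes. Its 124 RPKM of footprints lay at the 77.2nd percentile. Ribosome density was taken as log2 of footprint RPKM over RNA RPKM, set to 0 for the median gene, whose footprint to RNA ratio was 0.821. STT3 had a density of -0.74, or 0.597 times that of the median gene, the lowest of the 8.

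OST4, the partner of STT3 (chromosome IV, 38487 to 38597, plus strand), has a reading frame of 111 nt, printed whole below because its length bears on how its values can be read. Capitals mark the start and stop codons.
OST4: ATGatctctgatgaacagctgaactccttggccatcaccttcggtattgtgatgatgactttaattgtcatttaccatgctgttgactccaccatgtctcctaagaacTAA
The frame encodes 36 residues, with 1 hydrophobic stretch by a Kyte-Doolittle mean of at least 1.6 over 19 residues, against 10 such stretches in the 718 residues of STT3. The RNA level of OST4 was 165 RPKM and its footprint level 121 RPKM, a density of -0.16. STT3 and OST4 therefore differed 1.54-fold in RNA and 1.03-fold in footprints. OST4 rests on the fewest reads, with 13.4 RPM of footprints (reads scaled by library size only, from RPKM times coding length), where STT3 had 268 RPM. Its level also depends on the length that reads are divided by. Were the first 15 and last 5 codons left out of that length, its footprint level would be 263 RPKM, the highest of the constant subunits and not the lowest. All reads are kept in this reckoning, since those within the left-out codons are not known.

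WBP1, SWP1 and OST2, which form a subcomplex, were ordered differently in the 2 libraries. WBP1 (chromosome V, 148722 to 150014, minus strand, 1293 nt) reached 214 RPKM in RNA and 230.3 RPKM in footprints, for a density of 0.39. SWP1 (chromosome XIII, 560996 to 561856, plus strand, 861 nt) stood at 171 RPKM in RNA and 152 RPKM in footprints, and its density was 0.11. OST2, the yeast relative of mammalian DAD1 (chromosome XV, 516449 to 516841, minus strand, 393 nt), had an RNA level of 111 RPKM and a footprint level of 162 RPKM. OST2 was thus the lowest of the constant subunits in RNA and the third highest in footprints. Its density of 0.84, or 1.78 times the median gene, was the highest of the 8. SWP1 and OST2 differed 1.55-fold in RNA and 1.07-fold in footprints, whereas WBP1 and SWP1 differed 1.25-fold in RNA and 1.52-fold in footprints.

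OST1, the relative of mammalian ribophorin I (chromosome X, 433221 to 434651, minus strand, 1431 nt), had an RNA level of 244 RPKM, a footprint level of 193 RPKM and a density of -0.06. Its partner OST5 (YGL226C-A, chromosome VII, 72749 to 73158, minus strand) has 261 nt of coding sequence in 2 exons. Its RNA level was 134 RPKM, its footprint level 230.7 RPKM and its density 1.06. OST1 had the higher RNA level of this pair and OST5 the higher footprint level.

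**Figure D2:**
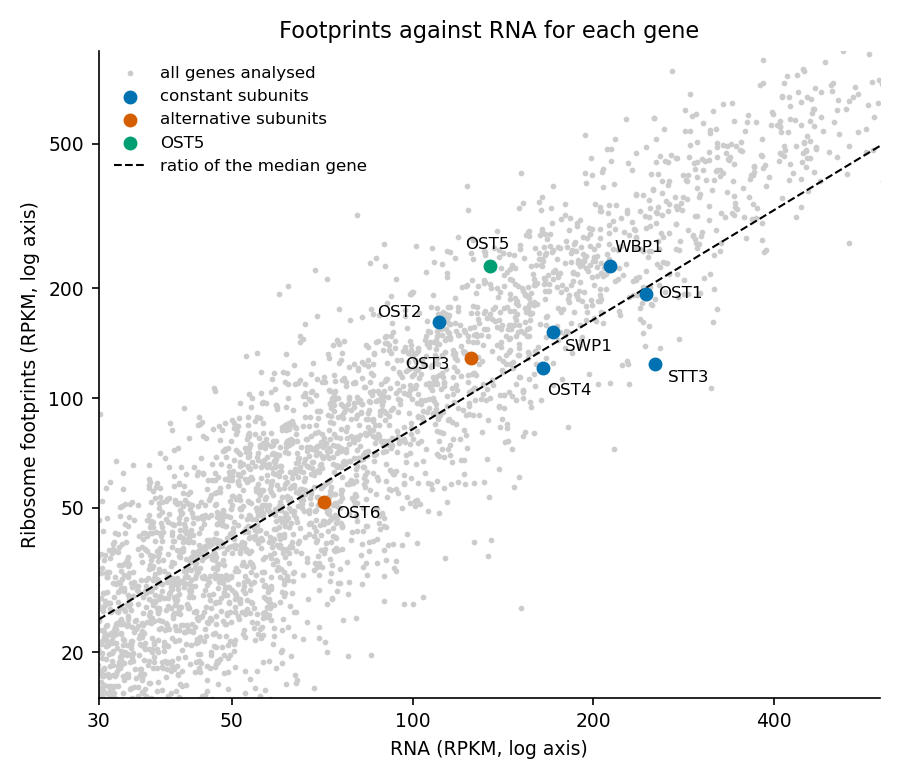
Footprint RPKM against RNA RPKM, both on log axes, with 1 point per gene and the axes limited to the range around the subunits. The dashed line is the footprint to RNA ratio of the median gene, 0.821. STT3 lies below the line, OST2 and OST5 above it, and OST1, SWP1, OST4 and OST6 close to it.

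The comparison between subunits with 1 place per complex asked how even their levels were. The 6 constant subunits spanned 2.29-fold in RNA (111 to 254 RPKM) and 1.90-fold in footprints (121 to 230.3 RPKM). The SD of log2 RPKM was 0.45 for RNA and 0.36 for footprints, where over all analysed genes it was 1.61 and 2.21. With OST5 added, a choice made after seeing the data, the footprint SD was 0.39 and the range 1.91-fold. All 6 constant subunits, and 7 of the 8 genes, had a footprint level within 1.5-fold of the median of the constant subunits, which these genes set themselves; 12.5% of analysed genes lay in that window. OST6 was the gene outside it. With the shortened length described for OST4 applied to every gene, STT3 would fall outside it as well.

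Footprint levels were closer than RNA levels in some pairs of constant subunits and farther apart in others. Of the 15 pairs, 8 (53.3%) were closer in footprints than in RNA, where 24.5% of all pairs of analysed genes were. Pairs of all genes span far wider levels and are an unlike background. In the other complexes described below the share was 66.7% (signal peptidase), 70.0% (GPI transamidase) and 47.6% (Sec61 and Sec63 genes). The 15 pairs of constant subunits share their 6 genes and are not independent. The median difference of a pair was 1.48-fold in RNA and 1.31-fold in footprints. No pair differed more than 2-fold in footprints, and 2 did in RNA, namely STT3 and OST1 each against OST2. These pair counts change with the length that reads are divided by. With the first 15 and last 5 codons left out of that length and all reads kept, footprints would be 263 RPKM for OST4. STT3 would then be at 128 RPKM, more than 2-fold apart from OST4. OST2 was in 5 of the 8 pairs that were closer in footprints, and the pair of OST1 and STT3 went the other way, at 1.04-fold in RNA and 1.55-fold in footprints.

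Other complexes of the endoplasmic reticulum membrane had footprint spreads on both sides of this one, smaller in signal peptidase and GPI transamidase and larger in the Sec61 and Sec63 genes. In signal peptidase, which removes signal sequences, all 4 subunits were listed, and their SD of log2 RPKM was 0.51 in RNA and 0.34 in footprints. Footprint values there were 121 RPKM for SEC11, the catalytic subunit, 113 for SPC1, 78.1 for SPC2 and 135 for SPC3. The 5 subunits of GPI transamidase, which attaches lipid anchors, had an SD of 0.39 in RNA and 0.27 in footprints, within 38.5 to 60.8 RPKM of footprints. GPI8, its catalytic subunit, had a density of 0.18, GPI17 -0.04, GAA1 -0.17 and GPI16 -0.52. The 7 genes of the Sec61 channel and the Sec63 complex, which need not be present in equal numbers, had an SD of 0.99 in RNA and 1.12 in footprints. SSS1, a small channel subunit, was high there with 1236 RPKM of footprints. In density SSS1 (0.91) and SEC72 (0.81) were the highest of the 7, and SEC63 (0.04) and SEC61 (-0.07) the lowest. No test sets these spreads apart from that of oligosaccharyltransferase.

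**Figure D3:**
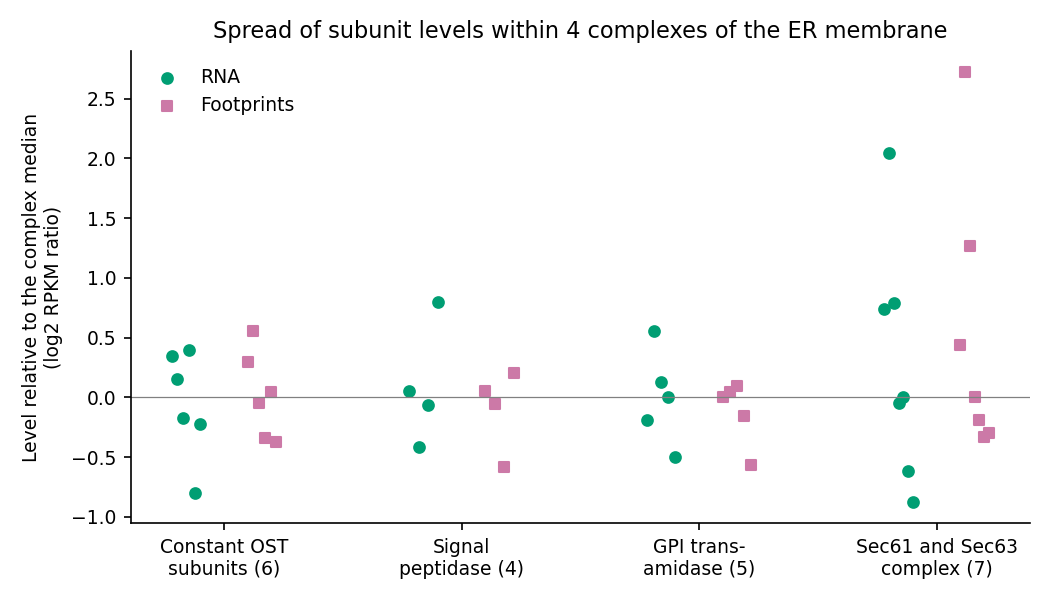
Level of each subunit relative to the median of its complex, as a log2 RPKM ratio, for RNA (green circles) and footprints (pink squares) in 4 complexes, with 1 point per gene. The footprint SD is 0.36 for the constant oligosaccharyltransferase subunits, 0.34 for signal peptidase, 0.27 for GPI transamidase and 1.12 for the Sec61 and Sec63 genes.

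The alternative subunits OST3 and OST6 were unequal in both libraries, with OST3 higher. OST3 (chromosome XV, 482033 to 483085, plus strand, 1053 nt) was at 125 RPKM in RNA and 129 RPKM in footprints. OST6 (chromosome XIII, 233457 to 234455, plus strand, 999 nt) was at 71.2 RPKM in RNA and 51.9 RPKM in footprints. OST3 was thus 1.76-fold higher in RNA and 2.48-fold higher in footprints. The densities, 0.32 for OST3 and -0.17 for OST6, differed by 0.50 on the log2 scale, or 1.41-fold. OST6 made up 36.2% of the summed RNA and 28.7% of the summed footprints of the pair. Both coding sequences have similar lengths, so how that length is counted moves this ratio little.

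Since a complex holds either protein, their sum was set beside the constant subunits. OST3 and OST6 summed to 197 RPKM of RNA, 1.02 times the median of the constant subunits (192 RPKM). They summed to 181 RPKM of footprints, 1.15 times the median of the constant subunits (157 RPKM), and lay inside the range of the 6 single genes. OST3 alone, at 0.819 of that footprint median, also lay inside that range, and OST6 alone, at 0.330, lay below it.

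As a list, the 8 genes lay around the median gene in density. Their median density was 0.03, with 4 genes above the median gene and 4 below. None of the 8 was more than 2-fold above it, as 6.79% of analysed genes were, and none more than 2-fold below it, as 13.1% were. Within 1.5-fold of the median gene were 6 of the 8, where the share of all analysed genes was 53.3%. Footprint RPKM exceeded RNA RPKM in 3 of the 8, WBP1, OST2 and OST3, and in 36.2% of analysed genes. The split depends on the centre: against total footprint over total RNA, which shifts the median of all genes to -0.38, 2 of the 8 lay above 0 and 6 below. STT3 was then at -1.12, more than 2-fold below, as were 1092 of the 4642 analysed genes under that centre. Against the 200 genes nearest in RNA level, 1 of the 8 lay above and 7 below, STT3 again by more than 2-fold (-1.28). The share of all analysed genes that lay so far below such neighbours is not given here. Density rose with RNA level over all analysed genes, with a Spearman rho of 0.53.

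Apart from OST4, the longer subunit genes tended to have the lower densities. The Spearman rho between coding length and density was -0.62 over all analysed genes and -0.29 over the 8. Without OST4 it was -0.57 over 7 genes, and so few genes give a description only. Lengths enter both RPKM values and cancel in density where both use the same length. Each density was then set against the median of the 200 analysed genes nearest in coding length. OST2 (0.06 above its neighbours in log2), OST1 (0.06) and OST5 (0.08) were at 1.04 to 1.05 times the density of genes of their length. OST3 (0.17), SWP1 (-0.16), STT3 (-0.32), WBP1 (0.38) and OST6 (-0.38) were at 0.767 to 1.30 times. The SD of density over all 8 genes was 0.47 both as measured and after this adjustment. Over the 7 genes without OST4, left out after its value was seen, it was 0.50 as measured and 0.27 after adjustment. OST4 stood 1.15 below its neighbours, or at 0.450 of their density. It was the single gene of the 8 more than 2-fold below genes of its length, as 9.44% of analysed genes were. Those neighbours were longer than OST4 or equal to it, at 111 to 363 nt. Against the 200 genes nearest in RNA level, OST4 was at -0.66.

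**Figure D4:**
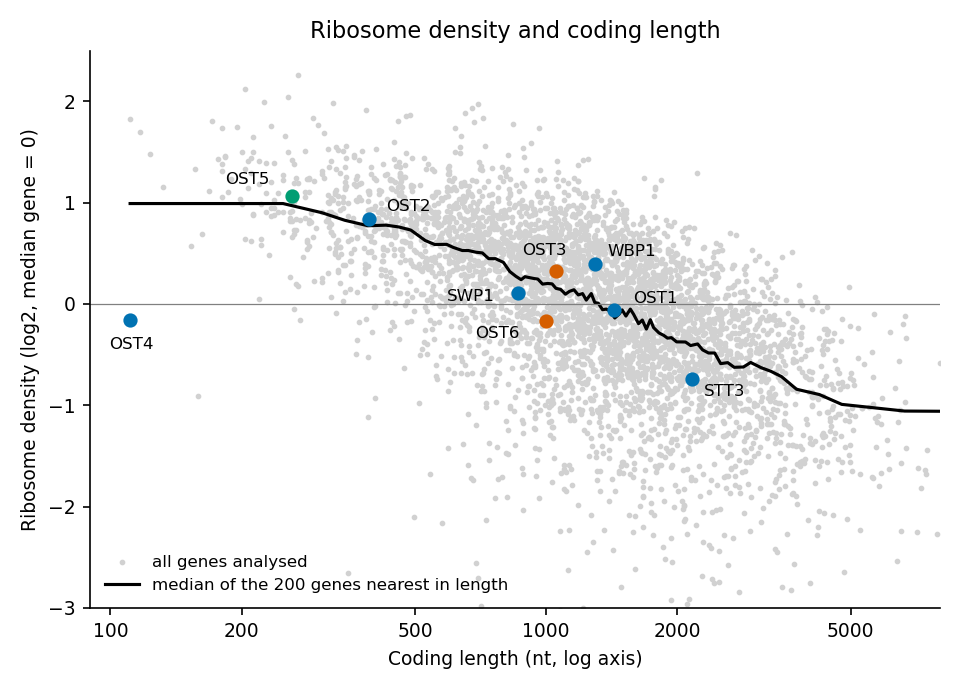
Ribosome density (log2, median gene at 0) against coding length in nt on a log axis, with 1 point per gene. The black line is the median density of the 200 genes nearest in coding length, and genes outside the plotted range are not shown. OST2, OST5 and OST1 lie on the line and OST4 lies 1.15 below it.

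Codon usage and the bases before the start codon were read as further features of the 8 genes. Codon adaptation, the likeness of codon use to that of ribosomal protein genes, ranked 6 of the 8 between the 68.8th percentile (OST2) and the 82.9th (STT3) of analysed genes. OST6 lay at the 42.9th percentile and OST4 at the 96.4th, the latter from a frame of 36 sense codons. Methionine codons are not scored. STT3, with the lowest density, thus had the second highest rank. Yeast genes often have A at the third base before the start codon. The start regions of the genes with the lowest and the highest density show both cases, with the start codon in capitals (chrVII:452392-452409, plus strand, and chrXV:516836-516853, minus strand).
STT3: atcacagctgccATGgga
OST2: tacatgactaatATGgca
STT3 has G at that base, SWP1 has C, and the other 6 genes have A, as 61.4% of analysed genes do. The median density of all analysed genes was 0.11 with A there, -0.10 with G, -0.32 with C and -0.33 with T. SWP1, with C, had a density of 0.11, above the median of genes with that base.

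Genes that build the lipid-linked sugar donor had lower levels than the constant subunits. Of 18 genes in these lists 17 were listed, and all 17 lay below the lowest constant subunit in RNA and in footprints, as did 76.6% of all analysed genes in RNA and 76.7% in footprints. Their RNA ran from 25.1 to 88.0 RPKM and their footprints from 10.6 to 73.8 RPKM. The constant subunits' median was 3.85 times the median of these genes in RNA and 4.16 times in footprints. Of the 17 genes, 15 also lay below OST6 in footprints, as did 57.9% of all analysed genes. Their median density was -0.23, with 4 above the median gene and 13 below, none of them by more than 2-fold. Among the dolichol phosphate genes, NUS1, a subunit of the polyprenol synthase, had 73.8 RPKM of footprints and a density of 0.34, and the phosphatase gene CAX4 had a density of 0.21. SEC59, the dolichol kinase gene, had a density of -0.98 and the reductase gene DFG10 one of -0.80. On the cytosolic face, ALG13 (0.51) and the mannosyltransferase gene ALG2 (0.06) had the highest densities, and the mannosyltransferase genes ALG11 (-0.37) and ALG1 (-0.40) the lowest. The luminal genes were all 6 below the median gene, from ALG12 (-0.20) and DIE2, the last glucosyltransferase (-0.22), to the mannosyltransferase gene ALG9 (-0.61) and ALG6, the first glucosyltransferase (-0.86).

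Genes that make the sugar donors and genes that act on the glycan afterwards differed more widely. The 10 sugar donor genes had a median density of 0.75, with 9 above the median gene, and a median footprint level of 293 RPKM. DPM1, the dolichol phosphate mannose synthase (1.30, 419 RPKM of footprints), and UGP1, which makes UDP-glucose (0.88), led them, and GNA1 (0.03) and ALG5, the dolichol phosphate glucose synthase (-0.30), were lowest. The 8 genes of trimming and folding control had a median of -0.20. They ran from the disulfide isomerase gene PDI1 (0.52, 1032 RPKM of footprints) and the lectin gene YOS9 (0.32) to the calnexin homologue CNE1 (-0.58) and the mannosidase gene MNL1 (-1.74, 8.20 RPKM of footprints). The 6 O-mannosyltransferase genes, which act on serine and threonine in the same compartment, were all below the median gene, with a median of -0.23. PMT6 (-0.10) and PMT1 (-0.14) were highest, and PMT5 (-0.27) and PMT4 (-0.62) lowest. The negative list medians here changed sign when each density was set against the analysed genes nearest in coding length. The median became 0.31 for trimming and folding control, where MNL1 (-1.29) and CNE1 (-0.45) stayed below genes of their length. It became 0.21 for the O-mannosyltransferases, where PMT4 alone stayed below (-0.17). The sugar donor median stayed positive, at 0.61. Against the analysed genes nearest in RNA level, however, the sugar donor median fell to 0.02. In that setting the medians of trimming and folding control (-0.40) and of the O-mannosyltransferases (-0.44) stayed negative. Their change of sign was thus seen with the adjustment for coding length and not with that for RNA level.

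**Figure D5:**
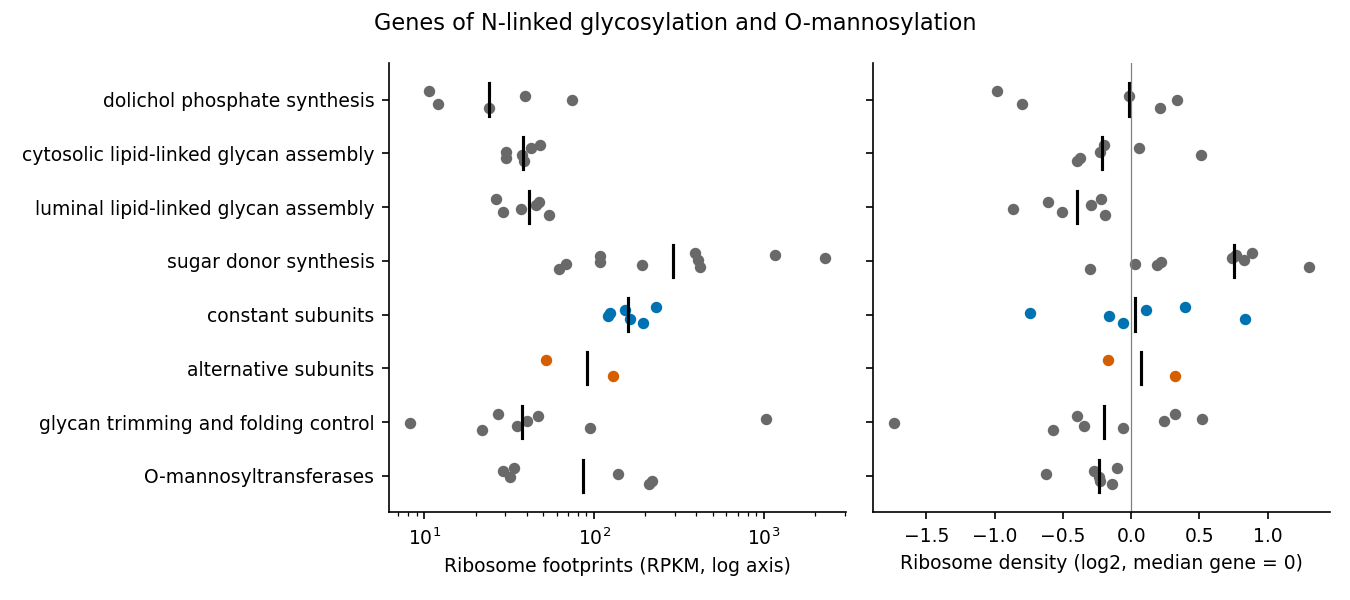
Footprint RPKM on a log axis (left) and ribosome density in log2 (right) of the genes in each list, with 1 point per gene and a black bar at the list median. The constant subunits (blue, median 157 RPKM) lie above all genes of the 3 upper lists, which build the lipid-linked glycan, and within the range of the sugar donor genes.

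The genes nearest to the median point of the constant subunits in log2 RNA and log2 footprint were RPN3, a proteasome lid subunit, SEC63 and TNA1, a nicotinic acid transporter. Their distances were 0.02, 0.06 and 0.08 in log2 units. They had 190 RPKM of RNA and 158 of footprints (RPN3), 194 and 164 (SEC63), and 183 and 160.4 (TNA1). Likeness here rests on 2 libraries only.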

How the data were processed

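Per the file headers, the deposited RPKM values were computed by the authors for genes with at least 10 RPM (library-scaled reads) in the RNA-seq and more than 0 in the footprints. The deposited log2 values matched log2 of the footprint over the RNA column (largest difference 1.63e-09) and were not used further. A deposited note says that reads start with 8 random nucleotides. The submitters' processing notes name build sacCer3; the sources used here name no aligner, counting rule or gene length. All 4685 identifiers matched RefSeq R64, which gave symbols, coordinates, coding lengths and sequences. Low footprint values did not fall on whole-read steps (at best 35.1% of 74 genes, where an even spread gives 20.7%), so the depth is unknown and intervals were not computed. Density is log2(footprint / RNA) with no pseudocount. Neighbour medians were checked on simulated data. OST3 and OST6 were aligned with BLOSUM62 (gap 10 and 0.5; Biopython 1.88). Other steps used pandas 2.3.3 and numpy 2.4.6. All 8 subunits are named; lists of 5 or more name the 2 highest and 2 lowest densities, shorter lists every gene, and the 3 nearest genes are given. The value of 1 gene of the glycan assembly lists is not reported here, and it was left out of those lists' counts and medians. The members and lists were chosen with earlier results of these data known.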

Additional observations from a re-analysis of the deposited data

How the results depend on the processing

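No paired analysis was possible because each assay has 1 library, and no library could be left out. A value was taken as moved when it changed by 0.1 or more in log2. The median density of the 8 genes was 0.03 and was 0.04 with no minimum level, 0.02 with a pseudocount of 1 RPKM and -0.05 after adjustment for coding length. It was -0.16 when centred on genes whose mean RPKM reached 20, -0.35 when centred on total footprint over total RNA, and -0.35 against the 200 genes nearest in RNA level. The first pair of these shifts is that of the centre itself, since the median of all genes moved to -0.18 and -0.38. The footprint SD of the constant subunits stayed between 0.34 and 0.39 under its alternatives. The log2 ratio of OST3 to OST6 was 1.31 in footprints and 0.82 in RNA. The summed OST3 and OST6 footprint over the constant median was 0.20 in log2, between 0.14 and 0.21 under most alternatives and -0.035 with the shortened length, which raises OST4 by 2.18-fold. The depth of both libraries is unknown. Of the 8 genes, OST4 had the fewest footprints, at 13.4 RPM, followed by OST6 at 51.8 RPM and OST2 at 63.8 RPM.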

Other observations

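OST4 was compared with other very short genes after its values had been seen. Of the 22 analysed genes with a coding length under 200 nt, OST4 had the second lowest density, -0.16, against a median of 1.32. MCO6 was lowest with -0.91, and TOM5, a small subunit of the mitochondrial import channel, came next with 0.57. MFA1, which encodes the mating pheromone a-factor and has the same coding length of 111 nt, had a density of 1.83, the highest of the 22. RNA was 374 RPKM for MFA1 and 165 RPKM for OST4, and footprints were 1090 and 121 RPKM. Of the 22 genes, OST4 and MCO6 alone had a footprint level below their RNA level. Listing needed at least 10 RPM in RNA, which a very short gene reaches only at a high RPKM. RNA among the 22 ran from 93.9 RPKM (COX7) to 9937 RPKM (RPL39), against 49.6 RPKM for the median gene. Whether this raised the median density of the 22 was not tested.

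STT3 had 0.411 of the density of the 200 genes nearest to it in RNA level, a difference of -1.28 in log2. How many of all analysed genes differ as much from such neighbours is not given here. Against the genes nearest in coding length it was at 0.801.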
